A study of Mus musculus with 12 samples.

Results

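Interleukins are the secreted signalling proteins through which blood and immune cells instruct one another, and 34 of the 754 genes measured here carry an interleukin symbol, that is, one that starts with Il and a digit, with Il6 left out. Members were taken by symbol alone. They divide into 19 ligand genes (secreted cytokines or their subunits, counting the antagonist gene Il1rn), 14 receptor genes, and Il4i1, which is neither: it is named for its induction by IL-4 and encodes a secreted amino acid oxidase. The transcripts were counted in total RNA of cells sorted as HSCs, haematopoietic stem cells, from the femur marrow of male mice at day 3 after surgery. Wild-type C57/BL6 mice and Adrb3-/- mice, null for the beta-3 adrenergic receptor, each had either sham surgery or ICH, the usual abbreviation of intracerebral haemorrhage. There were 4 groups of 3 libraries, from 6 mice of each genotype per the design text, so each library was taken as 1 mouse. Age, the promoter or construct of the inactivated allele, and whether controls were littermates are stated in no source used here, and Adrb3 itself was not analysed here.

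Interleukins signal through receptors of a few families. IL-1 family cytokines bind receptors that recruit the adaptor Myd88, and IL-1 beta and IL-18 are made as inactive precursors that caspase-1 cuts. Most other interleukins bind receptors built from a private chain and a shared one, which activate JAK kinases and STAT transcription factors. In marrow, IL-1 drives stem cells towards myeloid output and IL-3 supports progenitors of many lineages, while T cells and innate lymphoid cells make most type 2 cytokines.

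The libraries were of unequal quality, and 1 is left out of every result below unless it is named. Wild-type sham replicate 1 gave 79 counts for the strongest positive control, against 6278 to 44207 in the other 11, and 1 of its counts was scaled to a value of 15.5. Its interleukin values carry this scaling: Il22, which was under 20 counts in all 11 other libraries, stands at 496 there, and Il3 at 1411. Depth, as the sum over genes at 20 or more counts, ran from 110740 to 556407 counts in the 11 libraries. A gene with under 20 counts carries the value 20, which the authors did not scale, so it marks only that the level lay under the worth of 20 counts. That bound was 103 in Adrb3-/- ICH replicate 2 and between 23.0 and 43.0 in the other 10. Other libraries also stand apart in ways that touch the genes below. In Adrb3-/- ICH replicate 1 the highest negative control probe, scaled like a gene, stood at 117, against 18.5 to 77.4 in the other 10. The same library gave 6278 counts for the strongest positive control, against 23094 to 44207 in the other 10. In Adrb3-/- sham replicate 3 the neutrophil genes S100a8 and S100a9 took 23.2% of all counts, against 43.9 to 55.3% in the other 10. The stem cell marker Kit was measured at 20 or more counts in 10 of the 11 libraries (highest value 293). The stem and progenitor markers Cd34, Gata2 and Flt3 were so in all 11 (highest values 1880, 807 and 424). All 7 neutrophil markers on the panel, all 8 macrophage markers and all 5 eosinophil markers were found. None of the 6 T cell markers listed for the check is in the table, so T cells as a source of any cytokine could not be examined.

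Il1b and Il18, both cut by caspase-1, are the ligands described first, because in the same library, Adrb3-/- sham replicate 3, the former had its lowest value and the latter its highest. The bases upstream of both genes are given from RefSeq (GRCm38.p6), 5′ to 3′ along the gene's strand and ending just before the annotated gene. The Il1b stretch of 225 bases lies at chr2:129371165-129371389 on the minus strand, and the Il18 stretch of 250 bases at chr9:50554450-50554699 on the plus strand. Capitals mark matches on either strand to the TATA box TATAAA or to TTGNGNAA, a C/EBP-type motif.
Il1b: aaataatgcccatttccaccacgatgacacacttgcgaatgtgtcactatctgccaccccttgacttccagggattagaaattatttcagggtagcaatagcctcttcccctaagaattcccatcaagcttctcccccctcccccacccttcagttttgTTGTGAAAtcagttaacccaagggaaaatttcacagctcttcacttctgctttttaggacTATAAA
Il18: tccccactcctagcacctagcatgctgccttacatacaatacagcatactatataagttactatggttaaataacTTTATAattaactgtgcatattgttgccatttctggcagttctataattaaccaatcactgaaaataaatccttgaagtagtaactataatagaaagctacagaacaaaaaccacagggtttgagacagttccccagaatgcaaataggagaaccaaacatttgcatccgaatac
The Il1b stretch holds 1 TATA box at its end and 1 C/EBP-type match, and these motifs occur in 10.6% and 11% of all 32851 RefSeq promoter windows cut to that length. The Il18 stretch holds the TATA box letters once, on the other strand, and no C/EBP-type match, where 12.4% and 11.7% of windows of its length hold them. Neither stretch holds an NF-kB-type motif (GGG and CC with 5 bases between them), found in 42.0% and 45.8% of windows of these lengths, or TGANTCA, an AP-1-type motif found in 6.24% and 6.75%. The motifs do not overlap one another in these stretches. A match is only a run of letters, and its absence says nothing about the factor.

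Receptors were measured far more completely than ligands. Of 374 values (34 genes in 11 libraries), 68 were under 20 counts, or 18.2%, against 8.31% over all 754 genes. Ligands held 57 of these values (27.3% of theirs), receptors 10 (6.49%) and Il4i1 had 1. At least 1 library was under 20 counts for 18 of the 34 genes, made up of 14 ligands, 3 receptors and Il4i1. The ligand genes Il5, the eosinophil growth factor, Il22, which acts on epithelia, and Il27, a subunit of IL-27, were under 20 counts in all 11 libraries. Il1a, the alarmin form of IL-1, reached 20 counts in a single library, at 34.2 in wild-type sham replicate 3. Il27ra, the receptor chain for IL-27, was under 20 counts in 7 libraries. Its measured values were 32.4 in wild-type ICH replicate 3, 36.9 and 40.4 in Adrb3-/- sham replicates 2 and 3, and 55.9 in Adrb3-/- ICH replicate 3. Of the 34 genes 10 exceeded the highest negative control in every one of the 11 libraries, namely the ligand Il1b and 9 receptors, beside 345 of all 754 genes. Every other ligand was at or below that control in at least 1 library. For Il18 this was Adrb3-/- ICH replicate 1 alone, where the gene and the control probe each had 61 counts.

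**Figure D1:**
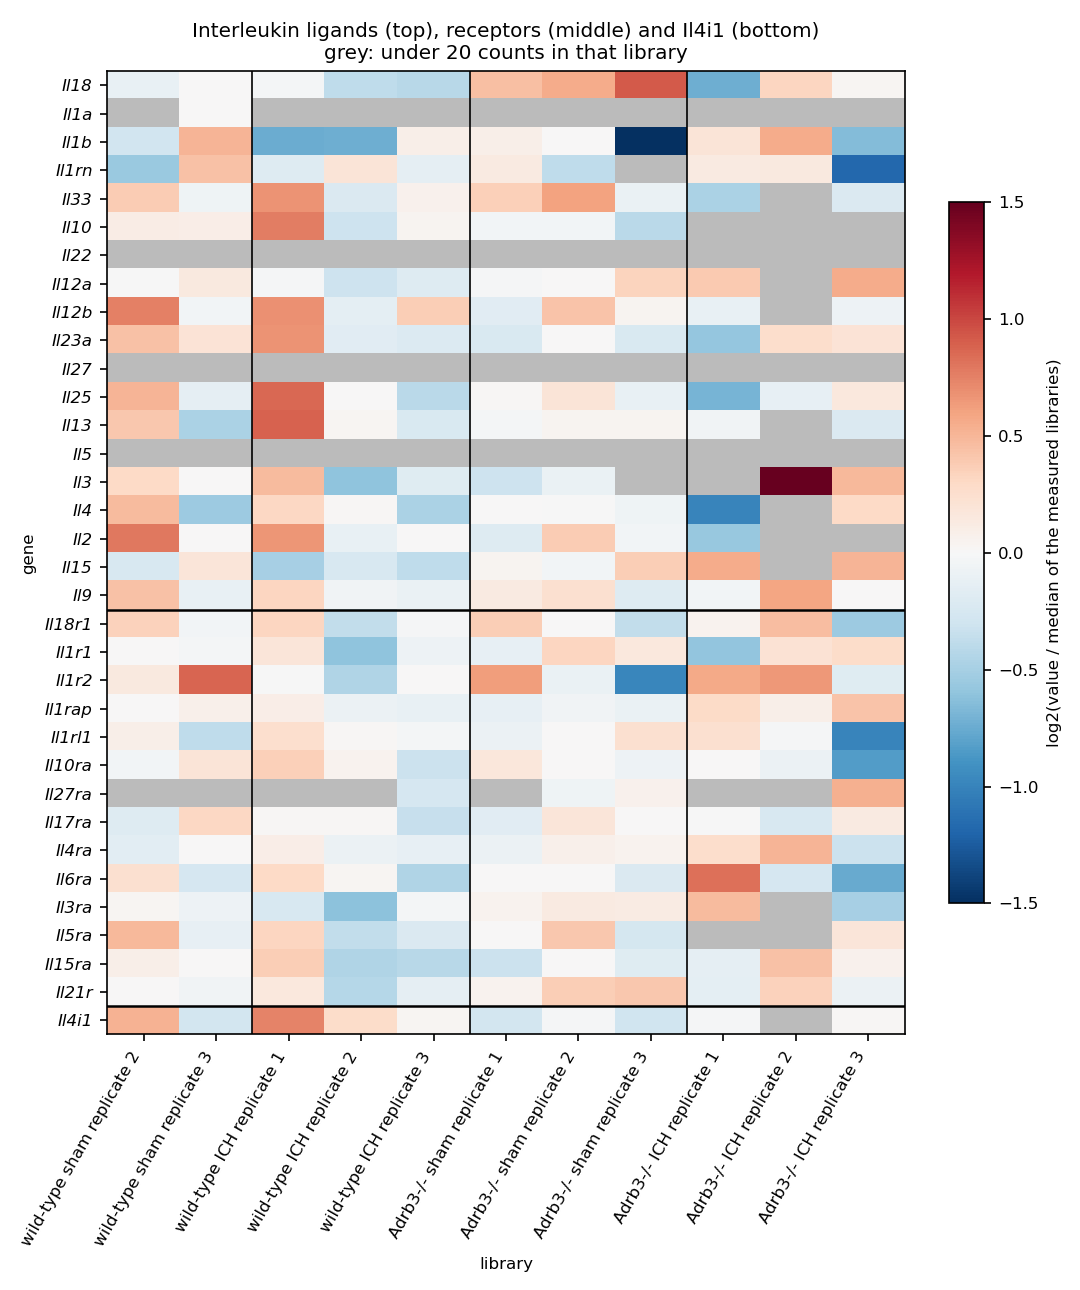
Level of each of the 34 genes (rows: 19 ligands, 14 receptors, Il4i1) in each of 11 libraries (columns, by group), as log2 of the deposited value over the gene's median in the libraries that measured it. Grey marks values under 20 counts, which fill the rows of Il5, Il22 and Il27 and 16 rows of Adrb3-/- ICH replicate 2. Colours end at 1.5 in either direction.

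The values under 20 counts were unevenly spread over libraries. Adrb3-/- ICH replicate 2 had 16 of the 34 genes under 20 counts, and the other 10 libraries had between 4 and 8. Over all 754 genes the share was 32.2% in that library and 3.58% to 13.8% in the others. The filter on low genes, a mean over the 11 libraries above a background of 52.2, kept 27 of the 34 genes (13 ligands, 13 receptors and Il4i1) and 674 of all 754. Il1a, Il3, Il5, Il10, Il22, Il27 and Il27ra did not pass and were not tested. Among the 27 kept genes that library had 10 at 20, while the 5 wild-type libraries had 0.

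Among the IL-1 family ligands, Il1b, the main secreted IL-1 of myeloid cells, had the widest spread of the 16 interleukin genes measured in all 11 libraries, with its highest value 5.51 times its lowest. It was 440.3 and 768 in wild-type sham (replicates 2 and 3, here and below), 323, 324 and 572 in wild-type ICH, 570.3, 539 and 144 in Adrb3-/- sham, and 616, 795 and 342 in Adrb3-/- ICH (replicates 1 to 3). The 4 groups overlap, and Adrb3-/- sham replicate 3 lies below all other libraries. Il1rn, the antagonist that occupies the IL-1 receptor without signalling, was 66.4 and 133 in wild-type sham, 85.2, 112 and 89.1 in wild-type ICH, and 107, 108 and 43.03 in Adrb3-/- ICH. In Adrb3-/- sham it was 107 and 74.96 in replicates 1 and 2 and under 20 counts, a level below 23.1, in replicate 3. The lowest library of agonist and antagonist was thus the same. The summed value of the 7 neutrophil markers was also lowest there, at 91512, against 252472 to 515512 in the other 10 libraries, and its part in these low values was not tested. S100a8, S100a9 and Camp made up most of that sum, with medians of 142839, 144150 and 30308. The medians of Mmp8, Mmp9, Cxcr2 and Csf3r were 748, 487, 263 and 460. In bulk RNA such as this, fewer cells of a type and less RNA per cell cannot be told apart.

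Il18, which induces interferon gamma in lymphocytes, was the only one of the 27 kept genes with all 3 Adrb3-/- sham libraries above all 8 other libraries. Its values there were 264, 286 and 367, and they were 180.3 and 194 in wild-type sham, 190.0, 149 and 146 in wild-type ICH, and 117, 243 and 198 in Adrb3-/- ICH. Of all 674 kept genes 3.41% had this order. The group mean was 306 ± 54.0 (SD, n = 3) in Adrb3-/- sham against 187 ± 9.73 (n = 2) in wild-type sham and 186 ± 63.6 (n = 3) in Adrb3-/- ICH. The summed value of 8 macrophage markers separated the same libraries, at 7190 to 14063 in Adrb3-/- sham and 1213 to 4760 in the other 8. So did that of 6 dendritic cell markers, at 4124 to 7098 against 1675 to 3852. Among these 6 the MHC class II gene H2-Aa had the highest median, 1450. Irf8 reached at most 318, and Itgax was under 20 counts in 6 libraries and reached at most 48.7, so the sum says little about either. Adrb3-/- ICH replicate 3 had the lowest macrophage sum of the 11, 1213, and an Il18 value of 198, the highest of the wild-type libraries being 194. The part of these cells in the Il18 values was not tested.

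**Figure D2:**
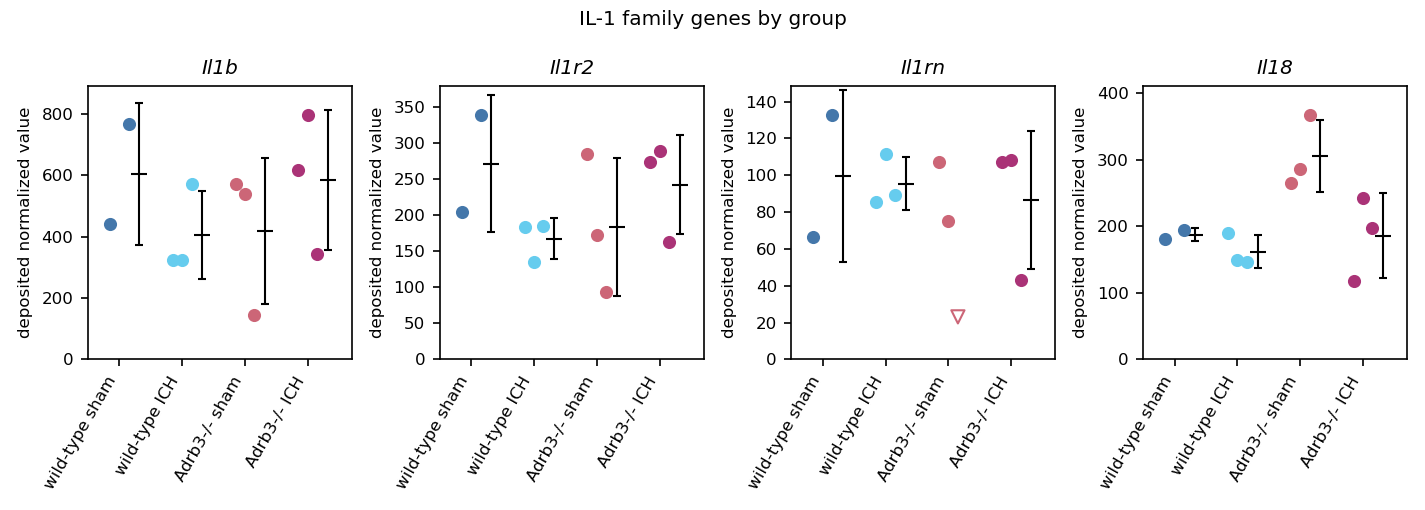
Deposited normalized values of Il1b, its decoy receptor gene Il1r2, the antagonist gene Il1rn and Il18 in each library of the 4 groups (points), with the mean and SD beside them where all libraries of the group reached 20 counts. The open triangle is the upper bound of 23.1 for Il1rn in Adrb3-/- sham replicate 3, which also holds the lowest Il1b (144) and Il1r2 (93.4) and the highest Il18 (367).

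**Figure D3:**
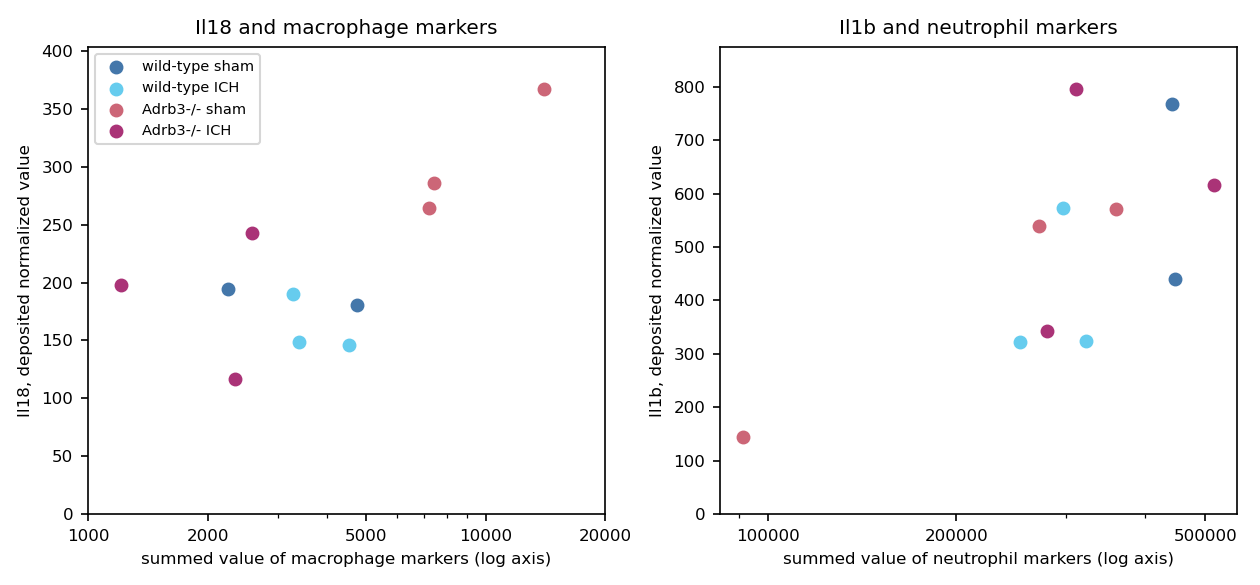
Il18 against the summed value of 8 macrophage markers (left) and Il1b against that of 7 neutrophil markers (right), 1 point for each of 11 libraries, with a log horizontal axis. The 3 Adrb3-/- sham libraries lie at the upper right on the left, with sums of 7190 or more, and Adrb3-/- sham replicate 3 lies alone at the lower left on the right, with a sum of 91512.

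Il33, the nuclear alarmin that signals through Il1rl1, was 104 and 76.5 in wild-type sham, 128, 69.1 and 84.3 in wild-type ICH, and 102, 122 and 74.98 in Adrb3-/- sham. In Adrb3-/- ICH it was 57.6 and 68.8 in replicates 1 and 3 and under 103 in replicate 2. The measured Adrb3-/- ICH values are the lowest of the series, but 57.6 in replicate 1 is below that library's highest negative control of 117. The bound on the remaining library spans most of the others.

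The ligands include the genes for subunits of IL-12 and IL-23. Il12a, a subunit of IL-12, was 62.6 and 69.7 in wild-type sham, 62.1, 50.7 and 55.1 in wild-type ICH, and 62.4, 63.5 and 79.6 in Adrb3-/- sham. In Adrb3-/- ICH it was 82.5 and 92.5 in replicates 1 and 3 and under 103 in replicate 2. Il12b, the subunit that IL-12 and IL-23 share, was 161 and 92.9 in wild-type sham, 153, 86.4 and 123 in wild-type ICH, 84.7, 128 and 98.05 in Adrb3-/- sham, and 88.3 and 90.4 in Adrb3-/- ICH replicates 1 and 3, with replicate 2 under 103. All 3 wild-type ICH values of Il12a lie below both wild-type sham values, by as little as 62.1 against 62.6, an order found in 14.1% of all 674 kept genes. The Il12b groups overlap, and its measured Adrb3-/- ICH values reach no higher than 90.4. In Adrb3-/- ICH replicate 1 both Il12a and Il12b lie below the highest negative control of 117. Il23a, the private subunit of IL-23, was 152 and 128 in wild-type sham, 179, 99.1 and 97.2 in wild-type ICH, 95.05, 112 and 95.7 in Adrb3-/- sham, and 74.8, 134 and 129 in Adrb3-/- ICH. Its Adrb3-/- sham libraries all lie below both wild-type sham libraries. Il10, the anti-inflammatory cytokine, was 49.3 and 49.2 in wild-type sham, 77.9, 36.9 and 47 in wild-type ICH, and 44.6, 44.5 and 34.6 in Adrb3-/- sham. It was under 20 counts in all 3 Adrb3-/- ICH libraries. The bounds there are 38.4, 103 and 43.0, which reach values measured in other groups, so no difference can be stated, and Il10 exceeded the highest negative control in 5 of 11 libraries.

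Il2, Il4, Il13, Il25 and Il9 act on or come from lymphocytes. Il2, the T cell growth factor, was 123 and 71.1 in wild-type sham, 112, 65.7 and 71.3 in wild-type ICH, 62.4, 92.8 and 69.2 in Adrb3-/- sham, and 47.97 in Adrb3-/- ICH replicate 1, with replicates 2 and 3 under 103 and 43.0. The Il2 value in replicate 1 and the bound in replicate 3 lie below all values of the other groups. However, 47.97 in replicate 1 is below that library's highest negative control of 117. Il4, which directs type 2 responses, was 139 and 68.3 in wild-type sham, 123, 100.2 and 71.3 in wild-type ICH, 99.5, 99.1 and 94.6 in Adrb3-/- sham, and 49.9 and 123 in Adrb3-/- ICH replicates 1 and 3, with replicate 2 under 103. For Il13, its close relative that shares the Il4ra chain, the values were 102 and 56.03 in wild-type sham, 144, 79.5 and 66.5 in wild-type ICH, 75.8, 80.04 and 79.6 in Adrb3-/- sham, and 74.8 and 66.7 in Adrb3-/- ICH replicates 1 and 3, with replicate 2 under 103. In each of Il2, Il4 and Il13 wild-type sham replicate 2 or wild-type ICH replicate 1 was the highest library. Il25, an IL-17 family member that promotes type 2 responses, was 247 and 159 in wild-type sham, 317, 174 and 131 in wild-type ICH, 177, 199 and 161 in Adrb3-/- sham, and 107, 160.0 and 194 in Adrb3-/- ICH. Il9, a growth factor of mast cells and T cells, was 135 and 91.6 in wild-type sham, 124, 95.6 and 92.4 in wild-type ICH, 108, 117 and 86.5 in Adrb3-/- sham, and 95.9, 149.7 and 98.96 in Adrb3-/- ICH. Il25 was highest in wild-type ICH replicate 1 and Il9 in Adrb3-/- ICH replicate 2. Of the 15 ligands measured in at least 8 libraries, 5 were highest in wild-type ICH replicate 1, 3 in wild-type sham replicate 2 and 3 in Adrb3-/- ICH replicate 2. The same libraries held the highest value of 14.3%, 11.8% and 8.96% of the 491 genes of the table measured in all 11. The median of all 754 genes was highest in wild-type ICH replicate 1 and wild-type sham replicate 2, at 170.5 and 159, against 111 to 151 in the other 9, and its part in the ligand values was not tested.

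Il15, which maintains NK cells and memory T cells, ran otherwise. It was 55.03 and 73.8 in wild-type sham, 46.3, 55.3 and 50.2 in wild-type ICH, 66.8, 63.5 and 84.2 in Adrb3-/- sham, and 95.9 and 92.5 in Adrb3-/- ICH replicates 1 and 3, with replicate 2 under 103. The measured Adrb3-/- ICH values lie above all others, but 95.9 in replicate 1 is below that library's highest negative control of 117. Il3, the growth factor of early progenitors, was 45.5 and 36.9 in wild-type sham, 51.1, 24.2 and 32.4 in wild-type ICH, 29.7 and 34.3 in Adrb3-/- sham replicates 1 and 2, and 129 and 51.6 in Adrb3-/- ICH replicates 2 and 3. It was under 20 counts in the remaining library of each Adrb3-/- group and above the highest negative control in 3 of 11 libraries.

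Receptor genes of the IL-1 family were measured in all 11 libraries. Il1r2, the decoy receptor that binds IL-1 without signalling, was 205 and 339 in wild-type sham, 184, 135 and 185 in wild-type ICH, 285, 173 and 93.4 in Adrb3-/- sham, and 274, 289 and 164 in Adrb3-/- ICH. Like Il1b and Il1rn it was lowest in Adrb3-/- sham replicate 3, and like Il1rn it was highest in wild-type sham replicate 3. Its highest value was 3.63 times its lowest. Il1r1, the signalling IL-1 receptor, was 133 and 129.8 in wild-type sham, 151, 87.5 and 126 in wild-type ICH, 122, 166 and 149 in Adrb3-/- sham, and 88.3, 155 and 161 in Adrb3-/- ICH. Il1rap, the accessory chain that IL-1 and IL-33 receptors share, had the narrowest spread of the 16, with its highest value 1.47 times its lowest. Its values were 131 and 138 in wild-type sham, 140.0, 123 and 122 in wild-type ICH, 120.3, 126 and 122 in Adrb3-/- sham, and 159, 139 and 176 in Adrb3-/- ICH. All 3 Adrb3-/- ICH libraries thus lie above all 3 Adrb3-/- sham libraries, and replicate 2 overlaps wild-type ICH.

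Il1rl1, the IL-33 receptor of mast cells and type 2 lymphoid cells, was 149.9 and 108 in wild-type sham, 168, 143 and 138 in wild-type ICH, 132, 141 and 167 in Adrb3-/- sham, and 167, 139 and 70.99 in Adrb3-/- ICH. Adrb3-/- ICH replicate 3 was the lowest library, and the other 2 of its group lay within the range of the rest. Il18r1, the binding chain of the IL-18 receptor, was 195 and 149 in wild-type sham, 192, 119 and 152 in wild-type ICH, 199, 154 and 119 in Adrb3-/- sham, and 159, 212 and 105 in Adrb3-/- ICH. It did not share the order of its ligand Il18, and its groups overlap throughout.

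Receptors of the other families overlapped between groups in most cases. Il17ra, the chain common to IL-17 receptors, was 431 and 612 in wild-type sham, 497, 498 and 387 in wild-type ICH, 437, 560.3 and 493 in Adrb3-/- sham, and 489, 418 and 540.0 in Adrb3-/- ICH, a spread of 1.58 times from lowest to highest. Il4ra, the signalling chain for IL-4 and IL-13, was 258 and 287 in wild-type sham, 308, 269.5 and 264 in wild-type ICH, 270.3, 304 and 299 in Adrb3-/- sham, and 345, 408 and 230.2 in Adrb3-/- ICH, which holds both the highest and the lowest library. Il10ra, the signalling chain for IL-10, was 224 and 262 in wild-type sham, 295, 238 and 185 in wild-type ICH, 259.9, 231 and 218 in Adrb3-/- sham, and 230.2, 217 and 129 in Adrb3-/- ICH. Over the 11 receptors measured in all 11 libraries, the median ratio of highest to lowest library was 1.90, against 2.95 over the 5 such ligands and 2.37 over the 491 such genes of the table. Il6ra, the binding chain for IL-6, was 304 and 216 in wild-type sham, 317, 264 and 188 in wild-type ICH, 258, 258 and 223 in Adrb3-/- sham, and 457, 217 and 153 in Adrb3-/- ICH. Its Adrb3-/- ICH libraries alone span the whole range, so the group mean of 275 ± 160.2 (SD, n = 3) describes none of them.

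Il21r, a common gamma chain partner for IL-21, was 146 and 141 in wild-type sham, 163, 108 and 133 in wild-type ICH, 151, 188 and 193 in Adrb3-/- sham, and 132, 186 and 138 in Adrb3-/- ICH. Il15ra, which presents IL-15 to neighbouring cells, was 85.4 and 80.6 in wild-type sham, 104, 58.8 and 59.96 in wild-type ICH, 63.9, 80.04 and 70.4 in Adrb3-/- sham, and 72.9, 108 and 83.9 in Adrb3-/- ICH. After sham surgery Il21r was higher and Il15ra lower in all Adrb3-/- libraries than in both wild-type libraries, by margins as small as those values show. Il3ra and Il5ra encode the binding chains that pair with the common beta chain on progenitors and eosinophils. Il3ra was 77.8 and 72.4 in wild-type sham, 64.5, 49.5 and 74.5 in wild-type ICH, 78.7, 83.8 and 83.05 in Adrb3-/- sham, and 106 and 53.8 in Adrb3-/- ICH replicates 1 and 3, with replicate 2 under 103. Il5ra was 87.3 and 57.4 in wild-type sham, 77.9, 48.4 and 53.5 in wild-type ICH, 62.4, 82.6 and 51.9 in Adrb3-/- sham, and 70.99 in Adrb3-/- ICH replicate 3, with replicates 1 and 2 under 38.4 and 103. The summed value of 5 eosinophil markers, of which Prg2 had the highest median (1349), was 1101 to 1538 in Adrb3-/- ICH. It was 1502 in wild-type sham replicate 3 and 2023 to 8277 in the other 7 libraries. The lowest sum, 1101, was in Adrb3-/- ICH replicate 3, where Il5ra was 70.99. The highest, 8277, was in wild-type ICH replicate 3, where Il5ra was 53.5. The part of this sum in the Il5ra values was not tested.

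Il4i1, the amino acid oxidase, was 171 and 98.4 in wild-type sham, 198, 144 and 122 in wild-type ICH, 98.02, 117 and 96.9 in Adrb3-/- sham, and 117 and 120.5 in Adrb3-/- ICH replicates 1 and 3, with replicate 2 under 103. All Adrb3-/- ICH libraries, the bound included, lie below all wild-type ICH libraries.

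Wild-type ICH and wild-type sham libraries were compared first, which addresses the response to ICH in mice that carry the receptor. None of the 27 kept genes passed (limma, Benjamini-Hochberg adjusted p under 0.05 over 674 genes), beside 0.0% of all genes, and none had an unadjusted p under 0.05, beside 0.0% of all genes as well. Fitted changes were on the log2(value + 1) scale. Their median over the 27 was -0.11, equal to that over all 674 genes, and 21 of 27 were negative, beside 483 of all 674. Il1r2 averaged 168 ± 28.6 after ICH (n = 3) and 272 ± 94.7 after sham (n = 2), a log2 change of -0.66 (SE 0.46). Il1b stood at 406 ± 144 against 604 ± 232, a change of -0.57 (SE 0.61), and Il15ra at -0.21 (SE 0.30), all at an adjusted p of 0.9999. Without wild-type sham replicate 3 the changes were -0.30 for Il1r2 and -0.17 for Il1b, and without replicate 2 they were -1.03 and -0.97. That of Il15ra was -0.48 without wild-type ICH replicate 1 and -0.07 without replicate 2. The summed neutrophil markers, mostly S100a8, S100a9 and Camp, separated the same groups, at 442332 and 447468 in sham and 252472 to 322715 after ICH. Their part in the Il1r2 and Il1b values was not tested. Il1r2 and Il12a were lower in all ICH than in both sham libraries, 2 of 27 genes beside 14.1% of all, and none was higher throughout, beside 3.12%.

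ICH against sham in mice without the receptor is the only one of the 5 comparisons in which any gene of the table passed, 7 genes or 1.04%, all lower after ICH, and none was an interleukin gene. At an unadjusted p under 0.05 there were 4 of 27, beside 10.8% of all genes. Il2 had a fitted change of -1.42 (SE 0.39, adjusted p = 0.145), Il33 of -1.16 (SE 0.44, adjusted p = 0.376) and Il18 of -0.76 (SE 0.29, adjusted p = 0.376), and Il5ra was the fourth at -1.05 (SE 0.46, adjusted p = 0.450). Il18 is the only one of these measured at 20 or more counts in every library. In the others the deposited 20 stands in for a level known only to lie under the worth of 20 counts. With each such value set to that bound, Il2 stood at -0.30 (SE 0.37), Il33 at -0.39 (SE 0.31) and Il5ra at 0.03 (SE 0.36), and Il18, which has no such value, stayed at -0.76. The Il18 change was -0.46 (SE 0.23) without Adrb3-/- ICH replicate 1, where the gene equals the highest negative control, and -0.99 (SE 0.29) without replicate 2. Without replicate 2 the Il33 change was -0.63 (SE 0.33, adjusted p = 0.651). The Il2 change was then -1.22 (SE 0.42, adjusted p = 0.424) and that of Il5ra -0.75 (SE 0.48, adjusted p = 0.664). Il2 was still at 20 in replicate 3 of that fit, and Il5ra in replicate 1. The Il2 and Il33 values of replicate 1 lie below that library's highest negative control.

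The same substitution moved 11 of the 27 genes and turned the sign of 6, namely Il12a, Il13, Il15, Il3ra, Il4i1 and Il5ra. The median change of the 27 went from -0.26 to 0.03 and that of all 674 genes from -0.16 to -0.04, so the lower median of the interleukin genes as deposited was not seen at the bound. A pair of genes passed when a library was left out. Il2 did so without Adrb3-/- ICH replicate 1 (change -1.83, adjusted p = 0.0316), where both remaining libraries of the group are at 20, and Il5ra without Adrb3-/- ICH replicate 3 (-1.64, adjusted p = 0.0209), again with both at 20. Neither value is a measured size of change. In replicate 2 the bound of 103 lies above all Adrb3-/- sham values of either gene. The bounds of Il2 in replicate 3 (43.0) and of Il5ra in replicate 1 (38.4) lie below all Adrb3-/- sham values of the same gene. With bounds taken into account, Il18 alone was lower in all Adrb3-/- ICH than in all Adrb3-/- sham libraries, 1 of 27 genes beside 6.82% of all (its lowest value, in replicate 1, equals the highest negative control there), and Il1rap alone higher, beside 1.63%. Il1rap stood at 0.36 (SE 0.20, adjusted p = 0.536). Il1b, Il1rn and Il1r2 stood at 0.64, 0.53 and 0.49, with errors of 0.54, 0.59 and 0.41. Without Adrb3-/- ICH replicate 2 they stood at 0.37, 0.31 and 0.35, below Il1rap at 0.45 and Il15 at 0.40. These positive changes include Adrb3-/- sham replicate 3, the lowest library for all 3 genes (144, under 23.1 and 93.4). In sham replicates 1 and 2 Il1b was 570 and 539, Il1rn 107 and 75.0, and Il1r2 285 and 173. Each of these values lies within the range of the Adrb3-/- ICH libraries.

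**Figure D4:**
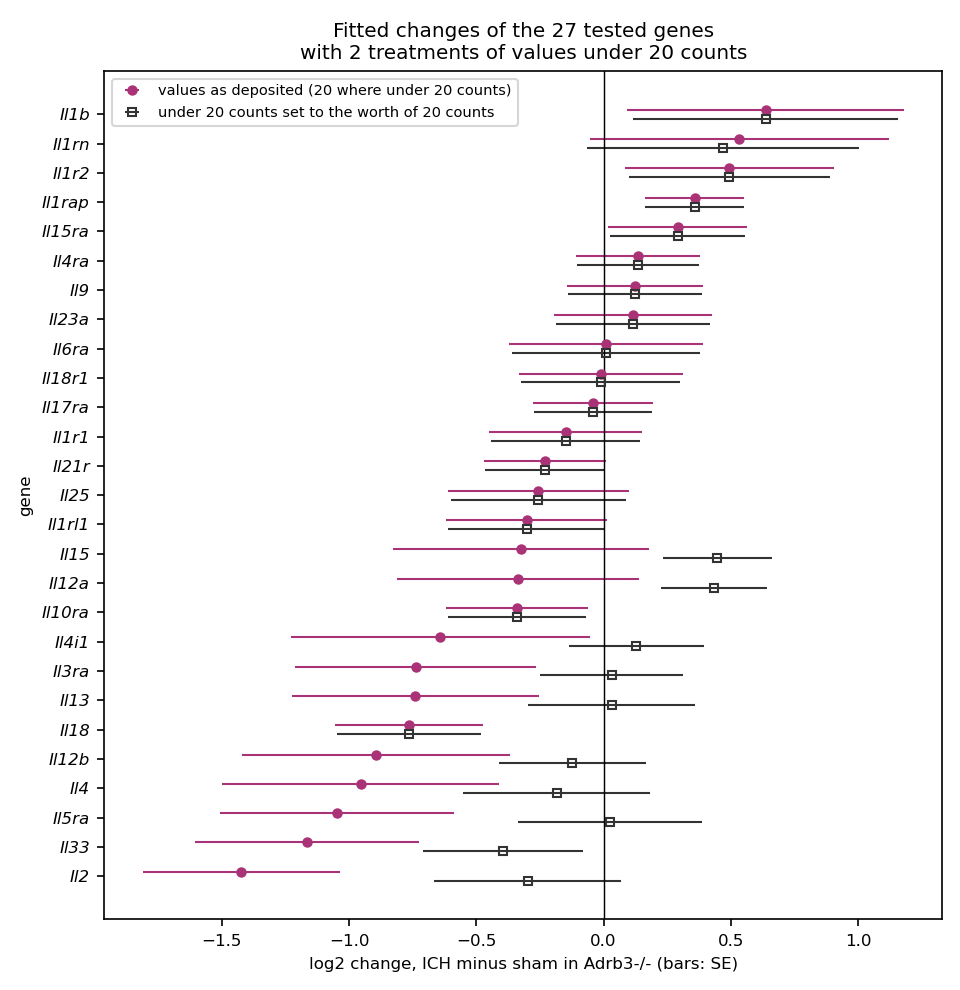
Fitted log2 change (ICH minus sham in Adrb3-/- mice) with its SE for the 27 tested genes, with values as deposited (filled circles) and with each value under 20 counts set to the worth of 20 counts in its library (open squares). The 11 genes with such values in either group move, Il2 from -1.42 to -0.30, and the other 16 keep their change.

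Genotypes were next compared among sham libraries, which addresses what loss of the receptor does in the absence of ICH. It shares its Adrb3-/- sham libraries with the previous comparison. No gene passed (limma, 0.0% of 674), and at an unadjusted p under 0.05 there were 0 of 27 interleukin genes beside 4.75% of all. Il18 stood at 0.69 (SE 0.32), Il1r2 at -0.66 (SE 0.46) and Il23a at -0.47 (SE 0.35), and the adjusted p was 0.992 for all 3. The Il1r2 change was -0.25 without Adrb3-/- sham replicate 3 and -1.05 without replicate 1. That of Il18 was 0.55 without the same library, and it was -0.12 (SE 0.60) with wild-type sham replicate 1 put back, in which Il18 is given as 1008. Groups did not overlap for 3 genes that were higher in Adrb3-/- libraries (Il18, Il21r and Il3ra), beside 10.4% of all genes, and for 3 that were lower (Il15ra, Il1rap and Il23a), beside 16.3%.

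Genotypes compared among ICH libraries gave no call either (limma, 0.0% of 674 genes), and 2 of 27 genes had an unadjusted p under 0.05, beside 10.7% of all. Il2 averaged 83 ± 25.3 in wild-type libraries (n = 3) and had a fitted change of -1.55 (SE 0.39, adjusted p = 0.400), which was -0.43 (SE 0.37) with values at their bound. Il33 stood at -1.06 (SE 0.44, adjusted p = 0.410) and at -0.28 (SE 0.31) at the bound, and Il12b at -1.10 (SE 0.53, adjusted p = 0.420) and at -0.33 (SE 0.29). Il4i1 was lower in all Adrb3-/- ICH than in all wild-type ICH libraries, the 1 gene of 27 to be so, beside 4.9% of all, and none was higher, beside 4.9%. Its replicate 1 value there equals that library's highest negative control, at 61 counts each, and its replicate 2 value is only a bound. With all 11 libraries Il15 stood at 0.16 (SE 0.50) and Il12a at -0.05 (SE 0.48). With values at their bound, Il15 stood at 0.93 (SE 0.21, limma adjusted p = 0.745) and Il12a at 0.72 (SE 0.21, adjusted p = 0.857). There these 2 genes, and no longer Il2 and Il33, had an unadjusted p under 0.05, beside 34 of all 674 genes. Without Adrb3-/- ICH replicate 2, which holds 10 of the values of kept genes at 20, Il15 stood at 0.89 (SE 0.24) and Il12a at 0.64 (SE 0.23), where the adjusted p of either gene was 0.585. Il2 was then at -1.35, Il33 at -0.52 and Il12b at -0.40. In Adrb3-/- ICH replicate 1 Il2, Il33, Il12b, Il15 and Il12a lay below the highest negative control. Il2 passed without Adrb3-/- ICH replicate 1 (-1.96, adjusted p = 0.0361) and Il5ra without replicate 3 (-1.51, adjusted p = 0.0249), in both cases against a pair of libraries at 20.

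The interaction, which tests whether the change with ICH differed between genotypes, gave 0 calls among all 674 genes (0.0%) and an unadjusted p under 0.05 for none of the 27, beside 4.3% of all. Il2 stood at -1.21 (SE 0.58) as deposited and -0.08 (SE 0.55) at the bound, Il1r2 at 1.16 (SE 0.61) and Il33 at -1.18 (SE 0.66), and the adjusted p was 0.888 for all 3. Il33 was at -0.41 (SE 0.47) at the bound and at -0.65 without Adrb3-/- ICH replicate 2. The Il1r2 value combines the lower level after ICH in wild-type with the higher one in Adrb3-/- mice and was 0.74 without Adrb3-/- sham replicate 3.

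Other genes of the interleukin pathways gave no call in any comparison, beside 0.0% to 1.04% of all genes. Of the 24 listed for the JAK and STAT arm, 11 were on the panel and all 11 were kept. None passed and none had an unadjusted p under 0.05 in the 5 comparisons (limma), beside 0.0% to 10.8% of all genes for the latter. Of the 23 listed for the IL-1 and IL-18 arm, 9 were on the panel and were kept. None passed and none was at an unadjusted p under 0.05, beside the same shares of all genes. Casp1, the protease that cuts both precursors, stood at -0.48 for ICH against sham in wild-type mice (adjusted p = 0.9999) and at 0.46 for Adrb3-/- against wild type after ICH (adjusted p = 0.420).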

How the data were processed

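The deposited table gives normalized signal for 754 genes in 12 libraries with 8 negative and 6 positive control probes. From the values, the authors' signal is a whole number of counts times 1 factor per library (values of at most 1000 counts lay within 0.00448 of a whole number). Genes under 20 counts carry the value 20 unscaled, and control probes are unscaled counts. Instrument, panel and scaling method are stated in no source used here. Chi-square over degrees of freedom was 7.34 or more for each within-group pair of libraries, so none was treated as a duplicate.

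Wild-type sham replicate 1 was left out. Genes were kept when their mean over 11 libraries exceeded a background of 52.2, the average over libraries of scaled negative control mean plus 2 SD. With limma 3.58.1 (R 4.3.3), log2(value + 1) was modelled by 4 group means, with two-sided p-values adjusted by Benjamini-Hochberg over 674 genes with a threshold of 0.05. The fit was checked on simulated normal log2 values, drawn separately for each gene. They had no floor at 20 and no differences in depth, so the check does not cover the effect of either. All groups shared 1 estimate of the spread. Groups were said not to overlap only where bounds of values under 20 counts allowed no other order. No count model was used, since a value of 20 hides its count.

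Every interleukin gene was named. Values per library were printed for genes at 20 or more counts in at least 8 libraries, and changes for the 3 kept genes with the lowest p in each comparison and any others that bear on a limit. Members and gene lists were chosen with earlier results of these data known. Symbols of all 34 genes are in the gene table of GRCm38.p6, used for names. P-values set a group difference against the spread between libraries, which were taken as separate mice. That spread also includes differences in depth and the values given as 20.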

Additional observations from a re-analysis of the deposited data

How the results depend on the processing

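No interleukin gene passed in any of the 5 comparisons with 12 libraries, values under 20 counts at their bound, a common floor at 103, no filter, the filter of 12 libraries, genes measured in all libraries only, a pseudocount of 20, median centring, the replicate block or, for 4 comparisons, the 2 groups alone. Leaving out libraries gave between 0 and 1 for ICH in Adrb3-/- and for genotype after ICH, and 0 in the other 3 comparisons. Genes called over the whole table for ICH in Adrb3-/- mice numbered 7, and 0 with 12 libraries, a common floor, the replicate block or the 2 groups alone, 1 with median centring, 2 with no filter, 4 with the filter of 12 libraries, 13 with a pseudocount of 20, and 0 to 50 without single libraries. Genotype after ICH gave 2 with no filter and 0 to 49 without single libraries, and the other 3 gave 0 to 1. Of the 15 named changes, 3 turned sign: Il18 for genotype in sham (-0.12 with 12 libraries), Il15ra for ICH in wild type (0.0012 at the common floor) and the Il2 interaction (0.088 at the common floor, where the Il2 change for ICH in Adrb3-/- was 0). Replicate numbers did not pair the libraries: deviations of same-numbered libraries correlated at -0.42 to 0.15, 2 of 15 pairs above 0.1, and 0 of 11 libraries correlated best with its own number. A value under 20 counts gives only a bound, which was the case for 57 of 209 ligand values, 12 of them in Adrb3-/- ICH replicate 2.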
